A study of Homo sapiens with 9 samples.

Results

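TRiC, also called CCT, is the ring-shaped chaperonin of the eukaryotic cytosol. It is built from 8 related subunits, which are encoded by TCP1, CCT2, CCT3, CCT4, CCT5, CCT6A, CCT7 and CCT8. These 8 genes were matched by symbol to the Ensembl identifiers of the deposited counts, and each was found once among the 61544 genes counted. All 8 passed the filter on low counts that left 18653 genes for testing.

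H1975 is an established human lung adenocarcinoma cell line. All 9 RNA-Seq libraries came from cells that first received si78, an siRNA against the 3′UTR of the endogenous GRP78 transcript, for 24 h. They were then transfected for 48 h with the empty plasmid pcDNA3 (vector), with the FLAG-tagged GRP78 construct F-78(WT), or with F-78(NLS Mut), which carries a mutated nuclear localization signal (NLS). The groups are called vector, WT and NLS Mut. Each group had 3 libraries. No group without si78 was analysed here. The plasmids were introduced transiently, so each library averages transfected and untransfected cells. The labels do not say whether the 3 libraries of a group came from separate cultures, so p-values measure only the spread between these libraries.

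TRiC consists of a pair of stacked rings, each with a single copy of every subunit, that enclose a folding chamber closed by a lid in an ATP-driven cycle. Actin and tubulin are its best known clients, and it also folds WD40-repeat proteins such as G-protein beta subunits and the activators of the anaphase-promoting complex. Prefoldin hands newly made actin and tubulin to the ring, phosducin-like proteins assist it, and tubulin cofactors take over folded tubulin. GRP78 itself is a chaperone of the ER and belongs to another family (HSP70). The subunits differ in how well they use ATP: TCP1, CCT2, CCT4 and CCT5 lie on the side of the ring that binds and hydrolyses ATP strongly, and CCT3, CCT6A, CCT7 and CCT8 on the side that does so weakly. The subunits are described below in that order, which was used for presentation and not for a test.

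The 8 genes lie on 7 chromosomes of GRCh38 (coordinates of GENCODE release 29). TCP1 (alpha subunit, ENSG00000120438.12) spans 159778498 to 159789749 on chromosome 6, minus strand. CCT2 (beta, ENSG00000166226.13) spans 69585334 to 69601570 on chromosome 12, plus strand. CCT4 (delta, ENSG00000115484.15) and CCT7 (eta, ENSG00000135624.17) share chromosome 2, the first at 61868089 to 61888804 (minus strand) and the second at 73233420 to 73253021 (plus strand). CCT5 (epsilon, ENSG00000150753.12) spans 10249921 to 10266412 on chromosome 5, plus strand. CCT3 (gamma, ENSG00000163468.15) spans 156308968 to 156367873 on chromosome 1, minus strand. CCT6A (zeta, ENSG00000146731.11) spans 56051630 to 56063989 on chromosome 7, plus strand. CCT8 (theta, ENSG00000156261.13) spans 29055805 to 29073797 on chromosome 21, minus strand. Although the genes are dispersed, their coding lengths are close, from 1593 bases in CCT6A to 1668 bases in TCP1, and their GC content ranges from 43.1% (CCT8) to 51.3% (CCT7), against a median of 48.6% over the tested genes.

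Promoter sequences are shown because the log2 fold change of all 8 subunits had 1 sign in NLS Mut compared to vector, although 2 of them passed the test (below). The RefSeq table for GRCh38.p14, which gives 250 bases before and 50 bases after each annotated start, held 9 promoters for 7 of the 8 subunits. It held none for CCT6A. The core of a heat shock element, GAANNTTC, was found on either strand in the promoters of 2 subunits, TCP1 and CCT2, and in 6.77% of all 35116 promoters of the table. The TCP1 match began 231 bases before the start. The stretch of the TCP1 promoter that lies in no annotated UTR, chr6:159789750-159789852 on the minus strand, is shown with this match and a CCAAT box (on the opposite strand) in capitals:
TCP1: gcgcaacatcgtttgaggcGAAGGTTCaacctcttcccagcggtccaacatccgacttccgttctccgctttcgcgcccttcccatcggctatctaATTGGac

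The CCT2 match lay 89 bases before the second of its starts, at chr12:69585789-69585818 on the plus strand, where an annotated transcript already begins upstream. The core is in capitals:
CCT2: cccggagcgaaGAAATTTCtagtgtgggac

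The CCAAT box (letters CCAAT) was found in 4 subunits, CCT3, TCP1, CCT2 and CCT8, and in 34.6% of all promoters. The CCT8 match, 63 bases before the start at chr21:29073694-29073723 on the minus strand, lies in the annotated UTR of a transcript that begins upstream. It is shown with the box, read on the opposite strand, in capitals:
CCT8: aagggtgggctaATTGGagagccaggaaga

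The palindromic E-box CACGTG was in none of the 9 promoters and in 7.26% of all promoters. The general E-box CANNTG, which includes the palindromic form, was in those of CCT3, CCT5 and CCT2 and in 68.7% of all. One CANNTG match in CCT3 overlaps its CCAAT box. In GENCODE release 29 each of the 9 starts lies inside its gene, since other transcripts begin further upstream, by 125 to 149 bases in TCP1, CCT4, CCT8 and the first start of CCT2, 555 bases at the second start of CCT2, 616 in CCT5, 888 in CCT7 and 29581 in CCT3. The windows therefore hold 104 to 273 bases of annotated UTR, and that of CCT5 also 159 coding bases. A match to these letters is a description and says nothing on binding, which was not measured.

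The libraries had 17671055 to 27476298 reads counted on genes. HSPA5, which encodes GRP78, had 359, 383 and 391 CPM (counts scaled by the TMM library sizes) in the vector libraries, 5031, 5814 and 6145 with WT and 4962, 5156 and 4765 with NLS Mut. These values follow the labels, and the log2 fold change was 3.91 for WT and 3.71 for NLS Mut compared to vector. The 2 GRP78 groups overlapped (log2 fold change 0.19, adjusted p = 0.079). All 6 epithelial markers were detected, at a summed level of 4357 to 5107 CPM, while 8 markers of immune, endothelial and fibroblast cells together had 10.6 to 15.7 CPM. Leaving out vector replicate 1 raised the number of genes called (adjusted p under 0.05) against vector from 104 to 1256 for WT and from 148 to 1002 for NLS Mut. The subunits, and the calls for other genes that changed, are therefore also given without this library. HSPA5 in WT compared to NLS Mut was then called (0.20, adjusted p = 0.0039, edgeR).

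The summed level of the 8 subunit transcripts was highest in the cells with NLS Mut. It was 2089, 2184 and 2191 CPM in the vector libraries, 2181, 2215 and 2255 CPM with WT and 2452, 2505 and 2424 CPM with NLS Mut. The NLS Mut libraries were above all 6 others, whereas the vector and WT ranges overlapped. The group means were 2155 ± 56.8, 2217 ± 37.4 and 2461 ± 41.2 CPM (SD, n = 3 each), that is, 102.9% and 114.2% of vector (101.4% and 112.5% without vector replicate 1). The 8 genes thus made up 0.209% to 0.251% of the TMM-scaled size of a library. In bulk RNA, a change in the number of cells of a kind and a change in RNA per cell cannot be told apart.

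**Figure D1:**
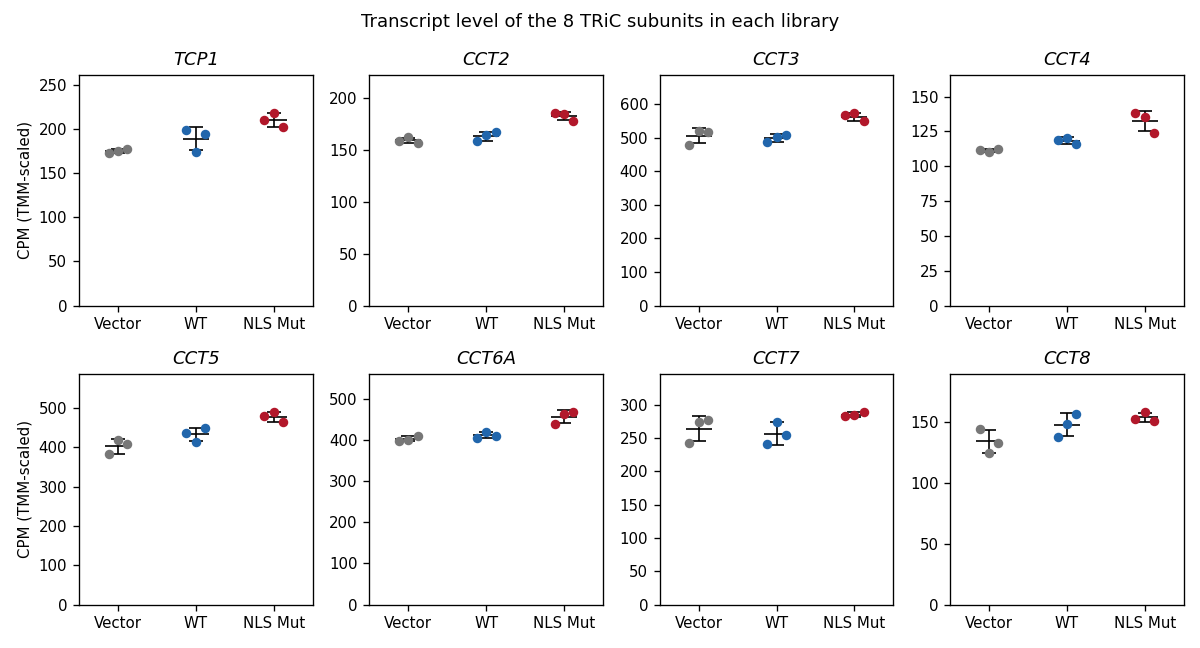
CPM (TMM-scaled, linear axes from 0) of the 8 subunit transcripts in each of the 9 libraries, with points for libraries and a bar with lines for the mean and SD of the 3 libraries of a group. In each panel the 3 NLS Mut libraries lie above the 3 vector libraries.

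TCP1 and CCT5 rose in NLS Mut cells compared to vector, and no other subunit passed the test in any comparison. TCP1, the first subunit to be described and the namesake of the complex, had 173, 175 and 177 CPM in the vector libraries, 198, 174 and 194 CPM with WT and 209, 218 and 202 CPM with NLS Mut. The NLS Mut libraries did not overlap either other group, and 1 WT library lay within the vector range. The difference between NLS Mut and vector was 0.26 ± 0.06 (log2 fold change ± SE, adjusted p = 0.031, edgeR quasi-likelihood test), or 19.8%.

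CCT5, mutated in a hereditary sensory neuropathy, had 383, 418 and 408 CPM in the vector libraries, 437, 415 and 449 CPM with WT and 480, 490 and 464 CPM with NLS Mut. Again the NLS Mut libraries stood above all others, while 1 WT library lay below the highest vector library. The log2 fold change of NLS Mut compared to vector was 0.25 ± 0.05 (adjusted p = 0.018, edgeR), or 18.7%.

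CCT4 missed the threshold narrowly. Its levels were 112, 110 and 113 CPM in the vector libraries, 119, 121 and 116 CPM with WT and 138, 135 and 124 CPM with NLS Mut. Its 3 groups were all apart from each other, and the share of tested genes for which this held was not counted. The log2 fold change of NLS Mut compared to vector was 0.25 ± 0.06 (adjusted p = 0.053, edgeR). CCT2, which has also been described as an autophagy receptor for protein aggregates, ranged from 157 to 162 CPM in vector, from 158 to 167 CPM with WT and from 178 to 185 CPM with NLS Mut, a log2 fold change of 0.20 (adjusted p = 0.11) for the latter against vector.

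On the side of the ring that uses ATP weakly, no subunit passed the test. CCT3 had 479, 519 and 517 CPM in the vector libraries, 486, 501 and 508 CPM with WT and 566, 572 and 549 CPM with NLS Mut. Its vector and WT libraries were interleaved, and the NLS Mut libraries lay above both (0.15 ± 0.05, adjusted p = 0.16, edgeR). CCT6A ranged from 398 to 409 CPM in vector, from 404 to 418 CPM with WT and from 438 to 467 CPM with NLS Mut, with a log2 fold change of 0.18 (adjusted p = 0.092) for the latter against vector.

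The vector libraries of CCT7 and CCT8 were spread widely. CCT7 had 242, 274 and 277 CPM in the vector libraries, 241, 274 and 255 CPM with WT and 283, 284 and 289 CPM with NLS Mut. Against vector this was the smallest log2 fold change of the 8 (0.11 ± 0.06, adjusted p = 0.49, edgeR). CCT8 had 145, 125 and 133 CPM in the vector libraries, 138, 149 and 157 CPM with WT and 153, 159 and 151 CPM with NLS Mut. In contrast to the other subunits, its WT and NLS Mut libraries overlapped. Its log2 fold change of NLS Mut compared to vector was 0.20 ± 0.07 (adjusted p = 0.17, edgeR).

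Compared to vector, the count for NLS Mut was therefore 2 of 8 subunits called higher, where 0.295% of the 18653 tested genes were called higher. The log2 fold change was positive for 8 of 8 subunits, with a median of 0.20 beside -0.002 over all tested genes. An unadjusted p under 0.05 was reached by 7 subunits and, in either direction, by 2268 of the 18653 tested genes. In all 8 the groups did not overlap, which held in this direction for 9.28% of the tested genes. Among the 2359 genes that averaged 100 CPM or more, as all subunits do, 1.40% were called higher. In this set 20.9% were apart in this direction and the median was 0.04.

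The 2 calls changed with single libraries. Without vector replicate 3 or without any of the 3 NLS Mut libraries, 0 subunits were called, and without vector replicate 2 or WT replicate 3 the call of CCT5 alone was left. Without vector replicate 1, 6 subunits were called (CCT2, CCT4, CCT5, CCT6A, CCT8 and TCP1), where 2.38% of tested genes were called higher. DESeq2 and an edgeR fit with a correction for GC content and length each also gave 6 calls, for CCT2, CCT3, CCT4, CCT5, CCT6A and TCP1, where they called 1.21% and 1.66% of tested genes higher. The direction was the same for all 8 subunits in each of 19 alternative fits, where the median lay between 0.18 and 0.21.

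**Figure D2:**
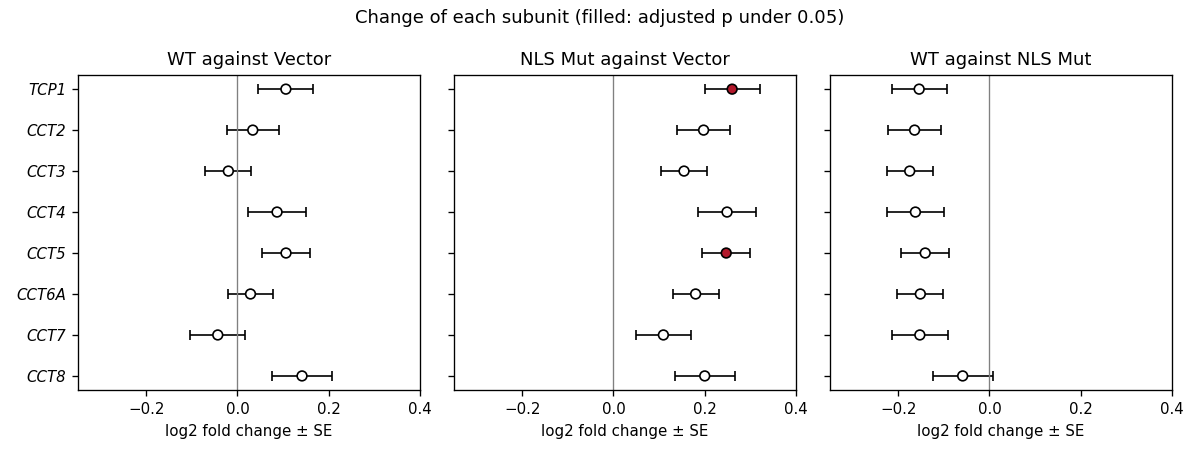
Log2 fold change (point) and SE (line) of each subunit in the 3 comparisons, from 1 edgeR fit of 9 libraries. Filled points mark an adjusted p under 0.05, which 2 subunits reach in NLS Mut against vector, and in WT against NLS Mut all 8 points lie below 0.

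No subunit passed the test between WT and vector cells. Of the 8 subunits, 0 were called by edgeR or by DESeq2, where 0.558% of the tested genes were called in either direction by edgeR and 1.4% by DESeq2. The log2 fold change was positive for 6 of 8 (median 0.06), from -0.04 for CCT7 to 0.14 ± 0.07 for CCT8 (adjusted p = 0.40, edgeR), or 10.3%. Of all tested genes 49.5% were positive (median -0.002), and of those with at least 100 CPM 60.8% were (median 0.03). CCT8 was the single subunit with an unadjusted p under 0.05 (0.040, edgeR), which 2186 of the 18653 tested genes had. The libraries of CCT4 did not overlap, but its log2 fold change of 0.09 did not pass (adjusted p = 0.64, edgeR). The share of all tested genes that were apart was not counted for this comparison. Without vector replicate 1, CCT8 was called (0.20, adjusted p = 0.048), where 6.33% of tested genes were. The signs of CCT3 and CCT7 turned positive under some alternatives, such as the correction for GC content and length (0.035 and 0.0115).

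The 2 GRP78 constructs differ in the mutated NLS. The mean HSPA5 level was also higher with WT than with NLS Mut (log2 fold change 0.19, adjusted p = 0.079, edgeR). Without vector replicate 1 this difference was 0.20 (adjusted p = 0.0039, edgeR). An effect of the mutated NLS and an effect of the amount of GRP78 cannot be told apart here. All 8 subunit transcripts were lower with WT than with NLS Mut, by 3.98% (CCT8) to 11.4% (CCT3), and none of these differences passed the adjustment. The log2 fold change was -0.17 ± 0.05 for CCT3 (adjusted p = 0.11, edgeR), -0.16 for CCT2 (adjusted p = 0.22), -0.16 for CCT4 (adjusted p = 0.28), -0.15 for TCP1, CCT6A and CCT7 (adjusted p = 0.29, 0.19 and 0.30), -0.14 for CCT5 (adjusted p = 0.26) and -0.06 for CCT8 (adjusted p = 0.81). The median was -0.15, beside -0.01 over all tested genes and -0.01 over genes with at least 100 CPM.

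In that comparison 0 of 8 subunits were called lower by edgeR and 1 by DESeq2. With edgeR 0.204% of tested genes were called lower, and 0.805% of those with at least 100 CPM. An unadjusted p under 0.05 was reached by 7 subunits and, in either direction, by 2155 of the 18653 tested genes. The libraries of 7 subunits were apart, with WT lower, which held for 9.42% of the tested genes and 16.7% of those with at least 100 CPM. CCT3 was called by DESeq2 (adjusted p = 0.026), after the correction for GC content (adjusted p = 0.027) and without vector replicate 1 (adjusted p = 0.013), fits that called 0.756%, 1.08% and 0.932% of tested genes lower. All 8 values stayed negative in 19 alternative fits. The 3 comparisons share libraries in pairs, so their values are not independent of each other.

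Not all reads over a subunit gene entered these counts. The unstranded column leaves out reads that lie on exons of more than 1 gene, whatever their strand, while the columns for each strand assign such a read to the gene on that strand. The sum of both strand columns thus adds the reads that lie over exons of an antisense gene, and can include RNA of that gene. Reads over exons of another gene on the same strand are missing from it as well. By this measure the unstranded count lacked 44.8% of the reads of CCT4 (range of 9 libraries 42.6% to 48.3%), 24.5% of CCT8 (23.5% to 27.1%), 21.2% of CCT5 (20.3% to 22.1%) and 12% of TCP1 (7.65% to 13.4%). It lacked 0.25% of CCT3, 0.02% of CCT7 and none of CCT2 and CCT6A. Of 11560 genes with at least 1000 counts in all libraries together, 23.4% lacked over 10% and 6.76% over 40%.

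The overlaps can be named in part. In GENCODE release 29, exons of the antisense RNA AC012640.4 cover 30.1% of the exon bases of CCT5, exons of COMMD1 and of the antisense RNA AC107081.2 cover 12.6% of those of CCT4, and exons of ACAT2 on the other strand share 397 exon bases with TCP1. SNORA20 and SNORA29 share a further 12 and 140 bases with TCP1 on its own strand, and reads lost there are not seen by this measure. For CCT8 no exon of another gene overlaps in that release, although its loss was the second largest. The annotation release that the authors used is not given in the sources used here and may hold other overlaps. The lost share of CCT8 was 25.8% in vector, 23.96% with WT and 23.9% with NLS Mut. That of TCP1 was 12.7%, 10.5% and 12.8%. With both strand columns summed, TCP1 (0.26, adjusted p = 0.021), CCT5 (0.25, adjusted p = 0.013) and CCT4 were called in NLS Mut compared to vector, where 0.266% of tested genes were called higher.

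**Figure D3:**
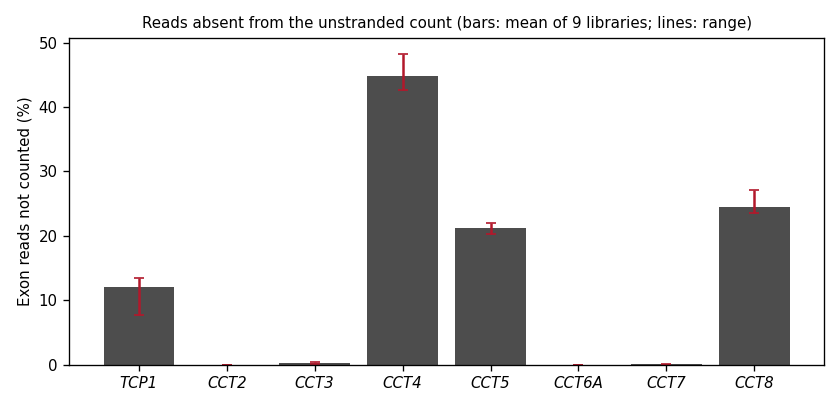
Share of exon reads of each subunit that is absent from the unstranded count (percent, bars from 0 for the mean of 9 libraries, lines for the range). CCT4, CCT8, CCT5 and TCP1 lack 12% to 44.8%, and the other 4 subunits lack at most 0.25%.

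Reads could also be lost to or gained from copies elsewhere. Of the 50-base windows along the transcript with the longest coding part, 49.8% in CCT5 and 22.1% in TCP1 occurred on either strand in transcripts of other genes. These were chiefly the antisense RNA AC012640.4 and ACAT2. Both overlap the subunit gene at the same place in the genome (above), so such windows are overlaps and not copies elsewhere. Of the 3626 windows of CCT5, 78 were in the pseudogene CCT5P1 and 25 in CCT5P2. Of the 2450 of TCP1, 108 were in TCP1P1 and 84 in TCP1P3. The share was 10.5% in CCT4 (the overlapping AC107081.2 and COMMD1), 8.59% in CCT8 (the pseudogene CCT8P1) and 6.67% in CCT6A (pseudogenes of the CCT6P series). It was 0 in CCT2, CCT3 and CCT7. No 50-base window of these transcripts was shared between 2 subunits. The 10 pseudogenes named after a subunit with the letter P and a number had at most 38 counts in a library, other than the CCT6 pseudogenes described in the closing section.

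The transcripts of the 8 subunits were not present in equal amounts, although the assembled rings hold equal numbers of each. Per kilobase of exonic length (the union of all annotated exons), CCT3 had 130 ± 8.35 CPM per kb (SD over 9 libraries) and CCT6A 108 ± 6.82. CCT5 and CCT7 followed with 75.1 ± 6.12 and 74.8 ± 5.07, and the other 4 were close together, CCT8 at 43.6 ± 3.38, CCT4 at 42.7 ± 3.55, CCT2 at 39.0 ± 2.62 and TCP1 at 38.8 ± 3.43.

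As a share of the summed per-length level, where an even share is 12.5%, CCT3 took 23.5% (range 23.0% to 24.4%), CCT6A 19.6% (18.9% to 20.4%), CCT5 13.6% and CCT7 13.6%. CCT8 took 7.89%, CCT4 7.73%, CCT2 7.05% and TCP1 7.02%. The highest subunit exceeded the lowest by a ratio of 3.41 ± 0.135 (range 3.27 to 3.63, n = 9). The levels fell into ranges that did not overlap at 2 places in the order, between CCT6A and CCT5 and between CCT7 and CCT8. CCT3 was above CCT6A in 9 of 9 libraries although their ranges touched. CCT4 was likewise above CCT2 in 9 of 9 libraries, with shares that did not overlap (7.37% to 8.21% against 6.82% to 7.23%). The other neighbours, CCT5 and CCT7, CCT8 and CCT4, and CCT2 and TCP1, could not be put in order beyond their spread over libraries.

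The order depended on the counting and on the length used. With both strands summed, the share of CCT4 was 12.3% in place of 7.73% and that of CCT8 9.22%, the lowest subunit was CCT2, and the ratio was 3.34. With the coding length in place of the exonic length, the ratio was 4.28, and with the longest transcript 5.07, in both cases between CCT3 and CCT4. With both strands summed over the coding length, CCT5 was the highest subunit and CCT2 the lowest, with a ratio of 3.27. The ratio of the highest to the lowest subunit thus lay between 3.17 and 5.07 in all 9 ways of scaling, while CCT3 led in 8 of them.

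**Figure D4:**
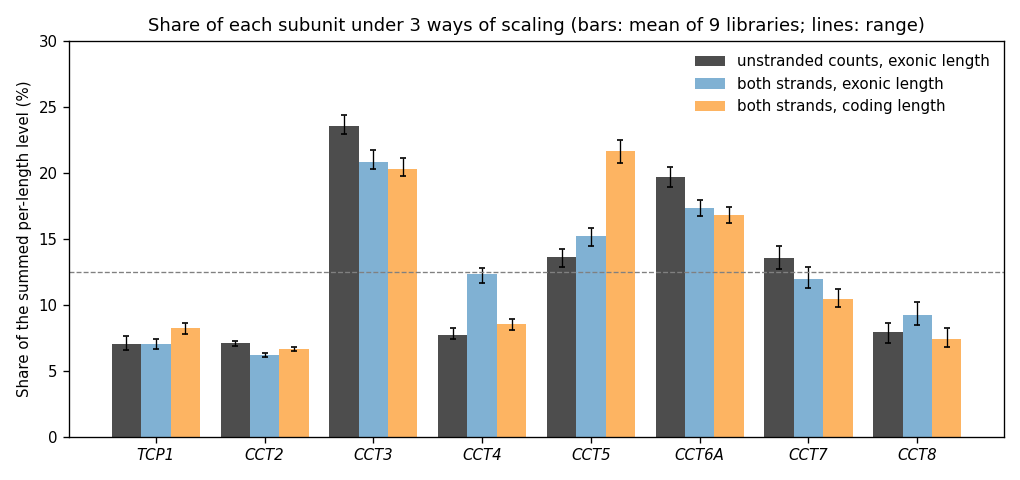
Share of each subunit in the summed per-length level (percent) with unstranded counts per exonic length, both strands per exonic length, and both strands per coding length, as means of 9 libraries with the range as lines. The dashed line is the even share of 12.5%, and CCT4 and CCT5 move most between the 3 scalings.

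The proportions changed little between the groups. CCT3 took 24% ± 0.50 in vector, 23.1% ± 0.12 with WT and 23.5% ± 0.23 with NLS Mut (SD, n = 3), and the WT libraries were below those of both other groups. With the correction for GC content and length these shares were 23.63% ± 0.24, 23.3% ± 0.37 and 23.64% ± 0.30, closer than their spread. TCP1 took 6.79% ± 0.09 in vector and 7.14% ± 0.15 with NLS Mut, with no overlap. With the correction these were closer, at 6.87% ± 0.09 and 7.09% ± 0.17. CCT8 took 8.25% ± 0.37 with WT and 7.74% ± 0.07 with NLS Mut, with no overlap (8.19% ± 0.36 and 7.71% ± 0.05 with the correction). In the other 20 of 24 contrasts of a share between 2 groups the libraries overlapped. With 3 libraries in each group, some of 24 contrasts can be apart without a difference between the groups. These shares were described and not tested.

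The subunits varied together over the 9 libraries. Over the 28 pairs of subunits, Pearson's r of log2(CPM + 1) had a median of 0.77 (0.16 to 0.95) and was over 0.5 in 25 pairs, beside a median of 0.005 over all pairs of the 10071 genes with at least 10 CPM. All pairs share the same libraries and their depth. After the group means were subtracted, the median was 0.12 (-0.48 to 0.75) and 5 pairs were over 0.5. By r over the 9 libraries, without that subtraction, the 5 genes most like the mean profile of the subunits, out of 10063 compared, were KIF11 (r = 0.97), a mitotic kinesin, RRP1B (0.97), a nucleolar protein, TFDP1 (0.95), the partner of E2F factors, SOAT1 (0.95), which esterifies cholesterol, and PGM2 (0.95), a sugar phosphate mutase. After the group means were subtracted, their r was 0.38, 0.84, 0.51, 0.54 and 0.66. KIF11, for example, had 81.5, 80.6 and 80.8 CPM in the vector libraries, 85.5, 86.1 and 88.0 CPM with WT and 99.1, 101.8 and 100.8 CPM with NLS Mut. These genes were selected for this likeness, so no test is given.

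The genes that work with TRiC were counted from lists written by hand with earlier results of these data known. Of 9 tested subunits of prefoldin and prefoldin-like complexes, 0 were called by edgeR in any comparison, and 4 of 9 were positive in NLS Mut compared to vector (median -0.04, from -0.37 for PFDN5 to 0.24 for VBP1). PFDN2, the most abundant, had 87.9 CPM in vector, 70.2 with WT and 81.6 with NLS Mut. The 3 phosducin-like cofactors that passed the filter had a median of 0.14 and 0 calls, with PDCL3 at 0.16 and PDCL at 0.08. The 6 tubulin folding cofactors tested had 0 calls and a median of -0.04, and TBCA, the most abundant, changed by -0.03. ARL2, a small GTPase that works with these cofactors, had the largest change of the 6 (-0.13). An unadjusted p under 0.05 was reached by VBP1 alone among these 18 helpers in NLS Mut compared to vector. Over all 18653 tested genes 2268 reached it. DESeq2 called none of these helpers in any comparison. Without vector replicate 1, edgeR called PFDN2, PFDN6 and ARL2 lower in WT compared to vector and PFDN2 lower in NLS Mut compared to vector. In either direction, that fit called 6.33% of 19857 tested genes in WT compared to vector and 1002 genes in NLS Mut compared to vector.

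Of the client genes, edgeR called 1 with all libraries, in WT compared to vector, where it called 0.558% of tested genes in either direction. TUBA1A, an alpha-tubulin, rose with WT compared to vector (0.34 ± 0.07, adjusted p = 0.017, edgeR), from 90.5 ± 4.91 to 114.8 ± 6.91 CPM, and had 103.1 ± 6.73 CPM with NLS Mut. Of 14 tubulin genes tested, 9 were positive in NLS Mut compared to vector (median 0.08), with TUBB4B, the most abundant, at 0.11 and TUBB4A, a minor one, at 0.52. DESeq2 called TUBA1C and TUBA4A in this comparison, where it called 1.21% of tested genes higher. With edgeR 0 of 14 were called, and 5 had an unadjusted p under 0.05, which 2268 of the 18653 tested genes had. ACTB, the most abundant actin, had a mean of 7547 CPM in vector, 8414 with WT and 7778 with NLS Mut (0.16 for WT compared to vector, adjusted p = 0.064, edgeR). DESeq2 called ACTG1 in WT compared to vector, where it called 1.4% of tested genes. Without vector replicate 1, ACTB (0.11) and ACTG1 (0.12) were called there, TUBA1A stayed called (adjusted p = 0.0021), ACTB was called in WT compared to NLS Mut (0.12) and TUBA1C in NLS Mut compared to vector. That fit called 6.33% of tested genes in WT compared to vector and called 2.38% higher in NLS Mut compared to vector. Of 16 other clients, such as GNB1, CDC20 and STAT3, 12 were positive in NLS Mut compared to vector (median 0.09). Neither edgeR nor DESeq2 called any of them there. An unadjusted p under 0.05 was reached by 2, CCNE1 (0.32) and HDAC3, beside 2268 of the 18653 tested genes. GNB2, the most abundant, changed by -0.02. In WT compared to NLS Mut the tubulins had a median of -0.13, with 4 of 14 apart and lower, and the other clients a median of -0.05, with 3 of 16 apart and lower. In that comparison 9.42% of all tested genes were apart and lower, and 16.7% of those with at least 100 CPM. CDC20, an activator of the anaphase-promoting complex, was called there by DESeq2 and without vector replicate 1 (-0.24, adjusted p = 0.018, edgeR), and not in the edgeR fit of all libraries (-0.25, adjusted p = 0.11). DESeq2 and the fit without vector replicate 1 called 0.756% and 0.932% of tested genes lower.

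Genes of the cytosolic heat shock response, which heat shock factor HSF1 activates, include other chaperones of the same compartment. The list used here also counts the factors HSF1 and HSF2 themselves, at 0.07 and 0.03 in NLS Mut compared to vector. Of 16 tested, 15 were positive in NLS Mut compared to vector, with a median of 0.15, and 4 were called by edgeR, where 0.295% of all tested genes were called higher (7 by DESeq2, where 1.21% were). Among all genes at 100 CPM or more, 63.0% were positive in this comparison and 1.40% were called higher by edgeR. Without vector replicate 1, 13 of 16 were positive and 7 were called, 6 of them higher and HSPB1 lower. That fit called 2.38% of tested genes higher and 1002 of 19857 in either direction. In WT compared to vector edgeR called 0 of 16 with all libraries. An unadjusted p under 0.05 was reached by 5 of them and by 2186 of the 18653 tested genes. DESeq2 called HSP90AA1 and HSPA8 there, where it called 1.4% of tested genes. The edgeR fit without vector replicate 1 called these and HSPB1, where it called 6.33%. HSP90AA1, the inducible HSP90, had 1445 ± 28.5 CPM in vector, 1638 ± 46.0 with WT and 1879 ± 85.1 with NLS Mut (0.38 ± 0.04, adjusted p = 9.1e-06 in NLS Mut compared to vector, edgeR). HSPA8, the constitutive cytosolic HSP70, had 1109 ± 44.0, 1258 ± 11.4 and 1427 ± 85.6 CPM (0.36 ± 0.05). The HSP90 cochaperones FKBP4 (0.30 ± 0.07) and PTGES3 (0.25 ± 0.05) were also called.

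With WT compared to NLS Mut, the median of these 16 genes was -0.15 and 2 were called lower. The share called lower was 0.204% of all tested genes and 0.805% of those with at least 100 CPM. The 2 calls were FKBP4 (-0.33, adjusted p = 0.023, edgeR) and HSP90AA1 (-0.20, adjusted p = 0.031). DESeq2 and the fit without vector replicate 1 added HSPA8 and PTGES3, and the latter also STIP1. These fits called 0.756% and 0.932% of tested genes lower. DNAJB1 and BAG3, further heat shock genes, changed by 0.03 and 0.06 in NLS Mut compared to vector, and HSPB1 by -0.07. HSPA1A and HSPA1B did not pass the filter, which used the unstranded counts. The mitochondrial chaperonin, made of HSPD1 and HSPE1, is the counterpart of TRiC in another compartment. HSPD1 had 747 CPM in vector, 772 with WT and 847 with NLS Mut (0.18, adjusted p = 0.063, edgeR, and 0.0054 without vector replicate 1, and called by DESeq2). HSPE1 was counted at group means of 7.27 to 10.0 CPM (0.47, adjusted p = 0.22, edgeR). Reads left out of the unstranded count were not looked up for HSPE1, HSPA1A or HSPA1B, so their low counts need not mean low transcript levels.

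**Figure D5:**
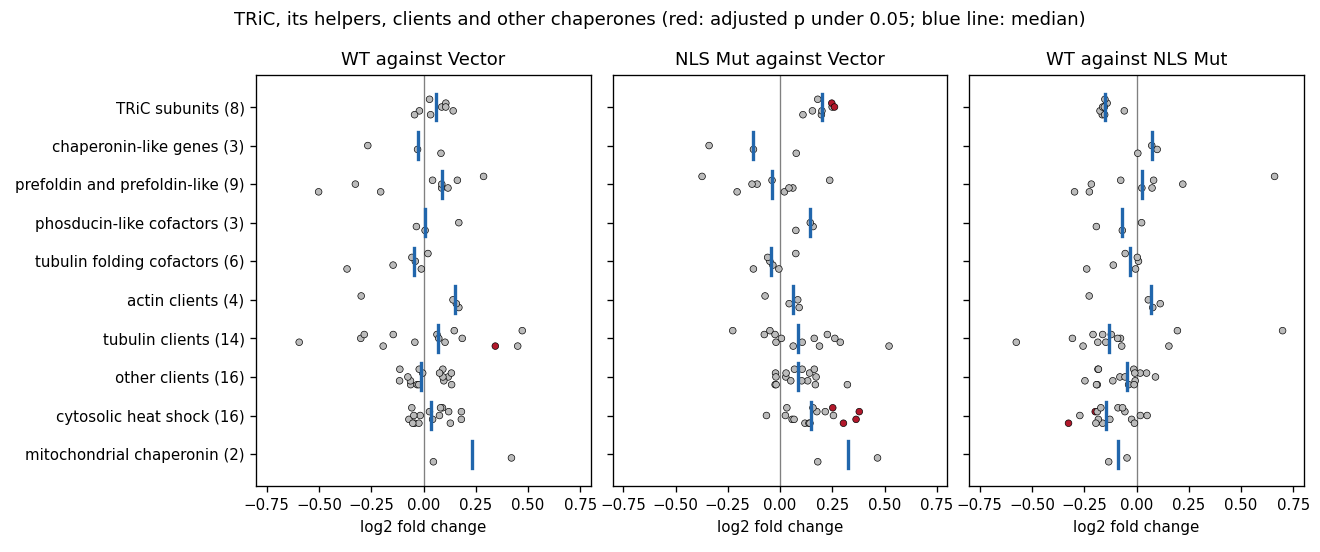
Log2 fold change of every tested gene of each list in the 3 comparisons, with the number tested in brackets, calls in red and the median as a blue line. In NLS Mut against vector the medians of the TRiC subunits (0.20) and the cytosolic heat shock genes (0.15) lie to the right of 0, and that of the prefoldin genes is at -0.04.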

How the data were processed

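RNA was sequenced from 9 libraries of H1975 cells, 3 each of vector, WT and NLS Mut. For each library the authors deposited unnormalized counts of reads on genes, as STAR writes them. The submitters' processing notes name STAR 2.7.9a and DESeq2 1.36.0, and GRCh38 as the genome. The annotation release is not given in the sources used here. The unstranded column was used, since 50.6% to 51.9% of strand-assigned reads were forward. The 4 summary lines that name no gene held 27.6% to 30.7% of reads and were left out.

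Counts were fitted with edgeR 4.0.16 in R 4.3.3 (quasi-likelihood test, TMM factors 0.989 to 1.02, filterByExpr, 1 coefficient per group, all 9 libraries). The SE was taken as |log2 fold change|/√F. P-values were adjusted by Benjamini-Hochberg over the 18653 genes, with a threshold of 0.05. Libraries differed by more than sampling noise, and the median biological coefficient of variation was 11.2%, which limits what 3 libraries per group show of small changes. An exact permutation test of 3 against 3 cannot go below p = 0.10 and was not used. Per-length levels divide CPM by exon lengths of GENCODE release 29, which held 58342 of the 61544 genes.

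The members and lists were chosen with earlier results of these data known. The genes named are the 8 subunits, HSPA5, genes overlapping a subunit, subunit pseudogenes, called list members, the most abundant and most changed members of a list, and the 5 genes most like the subunit profile. Some other list members and the CCT6 pseudogenes were chosen once their values were known. The scripts were checked on simulated data. Alternatives tried were a fit with DESeq2 1.42.0, edgeR with its size factors, library size alone, other filters, both strands summed, only the 2 groups compared, the replicate block, offsets for GC content and length (loess, span 0.3), other lengths and leaving out each library. Both strands summed over the coding length or the longest transcript were added after the data were seen.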

Additional observations from a re-analysis of the deposited data

How the results depend on the processing

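The direction of every subunit was kept in NLS Mut against vector and in WT against NLS Mut in all 19 alternative fits. In WT against vector, 6 of 152 values changed sign, all of CCT3 or CCT7, and the median of the 8 subunits fell to 0.0325 with library size alone. The cause of each shift below was not tested.

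The number of subunits called in NLS Mut against vector (2) was 6 with DESeq2, 1 with library size alone, 6 with the GC and length correction and 8 with the replicate block and that correction together. Of 18653 tested genes, these fits called 430, 172, 382 and 480 in either direction. In WT against NLS Mut (0) it was 1 with DESeq2, 1 with the GC and length correction, 1 with only the 2 groups compared and 2 with the replicate block and the correction (CCT3 and CCT7). DESeq2 and the correction called 0.756% and 1.08% of tested genes lower there, and the totals of the other fits follow in the next paragraph. Leaving out 1 library gave 0 to 6 subunits called in NLS Mut against vector, 0 to 1 in WT against NLS Mut and 0 to 1 in WT against vector, with vector replicate 1 left out for the highest value in all 3. Of the other values for single subunits, 510 stayed on their side of the threshold or within their spread, 28 passed it, 11 no longer did and 43 shares moved.

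Over all genes, WT against vector had 104 calls, which became 262 with DESeq2, 289 with no filter, 232 with the replicate block, 279 with the GC and length correction, 348 with both, 26 with only the 2 groups compared and 19 to 1256 with 1 library left out. NLS Mut against vector had 148, which became 430 with DESeq2, 240 with no filter, 230 with the replicate block, 382 with the correction, 480 with both and 33 to 1002 with 1 library left out. WT against NLS Mut had 94, which became 316 with DESeq2, 225 with no filter, 149 with a mean of at least 10 CPM, 212 with the replicate block, 413 with the correction, 490 with both, 315 with only the 2 groups compared and 27 to 388 with 1 library left out.

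The ratio of the highest to the lowest subunit (3.41) moved to 4.28 with the coding length, 5.07 with the longest transcript, 3.27 with both strands summed over the coding length and 3.17 with both strands summed over the longest transcript, and stayed between 3.38 and 3.43 with 1 library left out.

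Libraries with the same replicate number were not treated as pairs. The correlations of their deviations from the group means ran from -0.04 to 0.32, and 4 of 9 libraries correlated best with their own number. With the replicate number as a block, CCT4 joined TCP1 and CCT5 as called in NLS Mut against vector, 3 in all. That fit called 230 of 18653 tested genes in either direction.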

Other observations

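Relatives of the ring were far less abundant than the ring itself. CCT6B, a paralogue of CCT6A known from testis, had 1.70 to 4.16 CPM over the 9 libraries, and CCT8L2, a retrogene related to CCT8, had no count in any library. BBS10 and BBS12, chaperonin-like proteins of the Bardet-Biedl syndrome complex, had means of 20.2 and 15.7 CPM, and neither was called in any comparison.

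CCT6P1 and CCT6P3, unprocessed copies of CCT6A, had more reads than the other pseudogenes of the subunits. CCT6P1 had 23.6, 18.7 and 21.1 CPM in the vector libraries, 19.7, 18.6 and 18.3 CPM with WT and 17.9, 18.9 and 17.2 CPM with NLS Mut. CCT6P3 had 6.61 to 10.7 CPM over the 9 libraries. In contrast to CCT6A, CCT6P1 was not higher with NLS Mut than with vector in these libraries. Both were singled out after their values were seen, and whether reads of CCT6A were placed on them was not tested.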
